A study of Mus musculus with 2 samples.

Results

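The cells described here are the foregut and pharyngeal epithelium-like cells of the wild-type (WT) mouse second heart field at embryonic day (E) 9.5. They were picked by reads of 3 epithelial surface and junction genes: a cell entered the group when its summed Epcam, Cdh1 and Cldn6 unique molecular identifiers (UMIs, 1 per captured transcript) reached 5 and Epcam alone reached 2. The gate took 104 of the 533 E9.5 cells, out of 1500 cells in the series, and left 429 others. The series profiled single cells labelled Osr1+, after the transcription factor gene Osr1, that were dissociated from dissected tissue at E9.5 and E10.5 and encapsulated on a droplet platform. Each stage is 1 sample, and at E9.5 the cell barcodes carry a suffix for the anterior, middle or posterior part of the field, so each position is 1 library. No transgene or sort is described in the labels, and the number of pooled embryos is not given in the sources used here. Osr1 had a UMI in all 533 deposited E9.5 cells, so cells without an Osr1 read are not part of these values.

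The second heart field is splanchnic mesoderm that lies against the endoderm of the pharynx and foregut and feeds cells into both poles of the heart tube. The neighbouring epithelium is a sheet of polarised cells held together by E-cadherin (Cdh1), EpCAM and claudins, and it signals to the mesoderm through ligands such as Sonic hedgehog and FGF8. Its anterior part forms the pharyngeal pouches and the thyroid primordium, marked by Pax1, Pax9, Foxe1, Pax8 and Nkx2-1. Its posterior part forms the foregut tube, from which the lung, stomach and liver buds arise, marked by Foxa1, Foxa2, Sox2 and Shh.

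Several of the genes that mark these cells carry the E-box to which the epithelial repressors Zeb1, Zeb2, Snai1 and Snai2 are known to bind, CAGGTG or CACCTG on the other strand, just before their start. The stretches below show the 250 bases before the annotated start, 5′ to 3′ on the gene's strand, for 2 genes of the gate and for 3 of the genes that stood highest in the gated cells, all from the RefSeq promoter table for GRCm38.p6, with the E-box in capitals. Epcam lies on the plus strand at chr17:87635729-87635978, Cldn6 on the plus strand at chr17:23679115-23679364, Cldn4 on the minus strand at chr5:134946935-134947184, the second entry of Cldn7 on the plus strand at chr11:69965171-69965420 and the first entry of Crb3 on the plus strand at chr17:57061951-57062200.
Epcam: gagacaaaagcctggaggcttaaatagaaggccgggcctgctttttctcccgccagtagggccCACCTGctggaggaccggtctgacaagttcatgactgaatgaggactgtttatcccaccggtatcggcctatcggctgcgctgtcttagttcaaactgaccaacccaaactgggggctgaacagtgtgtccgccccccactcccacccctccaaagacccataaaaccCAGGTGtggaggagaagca
Cldn6: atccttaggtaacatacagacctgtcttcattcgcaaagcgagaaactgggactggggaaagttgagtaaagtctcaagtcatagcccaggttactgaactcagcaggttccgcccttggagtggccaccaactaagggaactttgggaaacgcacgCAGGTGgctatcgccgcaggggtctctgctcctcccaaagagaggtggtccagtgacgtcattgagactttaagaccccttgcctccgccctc
Cldn4: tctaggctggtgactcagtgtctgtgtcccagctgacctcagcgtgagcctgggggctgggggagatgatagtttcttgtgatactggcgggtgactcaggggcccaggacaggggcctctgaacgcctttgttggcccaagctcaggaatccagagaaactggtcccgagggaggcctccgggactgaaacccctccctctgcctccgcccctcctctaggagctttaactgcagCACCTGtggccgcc
Cldn7: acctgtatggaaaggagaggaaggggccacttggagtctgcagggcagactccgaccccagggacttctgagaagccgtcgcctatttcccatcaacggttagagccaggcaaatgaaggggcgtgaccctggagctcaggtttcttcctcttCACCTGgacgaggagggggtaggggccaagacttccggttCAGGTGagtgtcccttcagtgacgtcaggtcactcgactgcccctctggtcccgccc
Crb3: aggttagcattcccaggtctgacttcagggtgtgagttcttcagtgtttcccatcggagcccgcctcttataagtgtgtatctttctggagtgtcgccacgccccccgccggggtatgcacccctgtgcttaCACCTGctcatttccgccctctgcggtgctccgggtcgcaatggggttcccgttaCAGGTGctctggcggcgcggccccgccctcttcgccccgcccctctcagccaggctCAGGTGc
The E-boxes begin 187 and 19 bases before the start of Epcam, 93 bases before Cldn6, 14 before Cldn4, 97 and 57 before the second entry of Cldn7, and 118, 63 and 7 before Crb3, while the first entry of Cldn7 held none. Searched on both strands, the 6 letters occurred in 17.2% of all 32851 RefSeq promoter stretches of this length and in 14.3% of those of genes that passed the count filter. Of the 18 gate and leading genes 13 matched the table, with 17 stretches, of which 7 held the E-box (41.2%). In the junction list 7 of 16 stretches held it (43.8%) and in the mesenchymal list 1 of 16 (6.25%). Of the 12 genes named as lowest in gated cells 7 matched, and 2 of their 7 stretches held it (28.6%). Each stretch shown above holds the E-box, while those of Tmprss2, Fermt1, Pyy, Pax9, Kdf1, Cdkn2a and Bspry held none. A match is a description of the letters and not of binding.

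The share of cells in the gate differed between the positions (exact Clopper-Pearson intervals, which here and for all folds cover counting error only). It was 63.0% in the anterior library (34 of 54 cells, 95% interval 48.7 to 75.7), 34.4% in the middle library (21 of 61, 22.7 to 47.7) and 11.7% in the posterior library (49 of 418, 8.80 to 15.2), or 19.5% over all (16.2 to 23.1). With 1 library per position there is no replicate check on this order, and a difference in dissection cannot be told apart from a difference in the tissue. The shares are of deposited cells, which all hold an Osr1 UMI, and not of all cells of the dissected tissue. The part of that selection in this order was not tested. The gated cells held a median of 29300 UMIs (3472 to 104458) and the other cells 30337 (964 to 105157). The mitochondrial share was 2.19% of UMIs in gated and 2.02% in other cells, and no barcode was shared between the 3 libraries. The same gate took 54 of 967 E10.5 cells (5.58%), whose median was 7562 UMIs, so the stages are not set against each other.

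The gate fell in a sparse stretch of the distribution. Gated cells had a median of 11.5 Epcam UMIs (2 to 38), 13 Cldn6 UMIs (1 to 41) and 26 in sum (5 to 74), while Cdh1 was at 0 in 30 of the 104. Among the other cells 319 had none of the 3 transcripts, 87 had 1 UMI and 20 had 2 to 4. Just inside the gate lay 4 cells with 5 to 9 UMIs. Just outside lay 3 cells with 5 or more UMIs but too little Epcam: an anterior cell with 6 Cldn6 UMIs, an anterior cell with 4 Cdh1, 2 Cldn6, 5 Cldn7 and 2 Foxa2 UMIs, and a posterior cell with 1 Epcam and 4 Cldn6 UMIs. These values chose the members and are given as a description only.

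**Figure D1:**
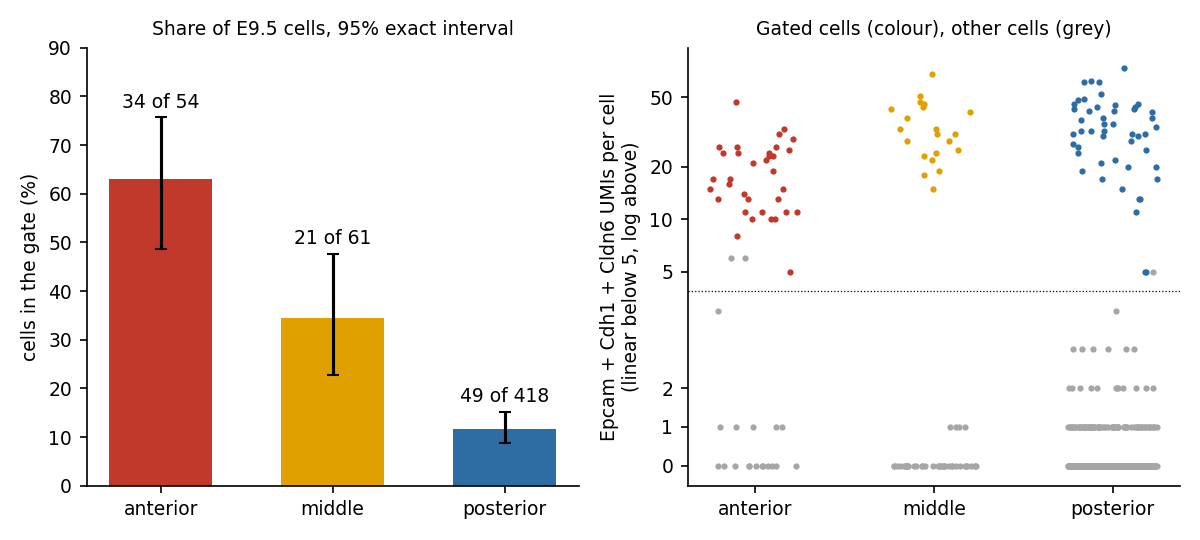
Left, the percentage of E9.5 cells in the gate at each position, with bars from 0 and 95% exact intervals. Right, summed Epcam, Cdh1 and Cldn6 UMIs of each cell (linear up to 5, log above), gated cells in colour and other cells in grey; the dotted line lies between 4 and 5 UMIs, and few cells lie near it.

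Foregut and pharyngeal genes that the gate did not read were detected in most of the gated cells. A UMI of at least 1 of the foregut genes Foxa1, Foxa2, Sox2 and Shh was present in 93 of 104 gated cells (89.4%, 81.9 to 94.6) and in 30 of 429 other cells (6.99%). Adding the pharyngeal and thyroid genes Pax1, Pax9, Foxe1, Nkx2-1 and Nkx2-3 gave 100 of 104, against 41 of 429. All 34 anterior and all 21 middle gated cells had at least 1 of the 9 transcripts, and the 4 gated cells with none were posterior. The other cells differed by position. At least 1 of the foregut genes was seen in 4 of 20 anterior, 0 of 40 middle and 26 of 369 posterior other cells. For the 9 genes these were 7 of 20, 2 of 40 and 32 of 369, so the split was least clean in the anterior library. These 2 gene sets were put together after the values were seen, so their counts are a description and no support for the label. All 7 markers of the pharyngeal endoderm list and all 5 foregut endoderm markers that passed the filter were at least 4-fold higher in gated cells. Over all 10373 genes with at least 50 counts the share was 1.92%. A marker low in other cells can pass through gated cells alone, so these counts are a description and no support for the label. Pax9, for example, had 115 UMIs in gated and 4 in other cells. Of the marker lists for other cell types, the 8 cardiomyocyte genes summed to 25.7, 9.61 and 154 counts per 1000000 UMIs (CPM) in anterior, middle and posterior gated cells, against 1575, 352 and 2396 in the other cells of those libraries, with Nppa at 0 in gated cells. The 8 mesenchyme markers summed to between 29.2 and 45.3 CPM in gated and between 214 and 591 CPM in other cells. Endothelial markers summed to 42.0, 17.8 and 39.0 CPM in gated and 68.3, 36.7 and 97.8 CPM in other cells, with Tek at 0 in gated cells. Erythroid markers summed to 157, 32.9 and 78.7 against 139, 35.5 and 73.2 CPM. The nephric epithelium list was higher in gated cells, at 149, 115 and 40.9 against 25, 8.02 and 6.33 CPM, most of it Gata3 (100.3, 115 and 38.4 CPM in gated cells), with Lhx1 at 0 in gated cells; the part of such cells was not tested. Leukocyte markers summed to at most 1.22 CPM, with Ptprc, C1qb and Laptm5 at 0.

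Over all genes, CPM were computed from UMIs summed over the cells of a group, which weights cells by depth. Since the gate chose cells on these same transcriptomes, the contrast between gated and other cells is a description with no test. Of 10373 genes with at least 50 counts, 199 were at least 4-fold higher in gated cells (1.92%) and 313 at least 4-fold lower (3.02%); the median log2 difference over all genes was -0.07. The posterior library holds most of the other cells, and without it 79 and 63 of 5936 genes were past 4-fold. The counts given below for each gene list stand beside these shares, and nothing is read from the comparison.

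Claudins and an apical polarity gene were among the genes with the highest folds. Cldn4, a claudin of tight junctions, was at 117, 136 and 59.2 CPM in anterior, middle and posterior gated cells and at 6.83, 0 and 0.333 CPM in the others, a 175-fold difference (83.7 to 438), or 54.9-fold (18.5 to 269) without the posterior library. Cldn7, another claudin, was at 177, 183 and 168 CPM against 15.9, 1.15 and 1.58, a difference of 85.7-fold (58.2 to 131), or 29.5-fold (14.8 to 69.0) without the posterior library. Crb3, the small Crumbs protein of the apical membrane, was at 65.3, 53.5 and 93.9 CPM against 9.10, 1.15 and 0.583, or 85.7-fold (48.2 to 168), and 15.7-fold (6.51 to 49.6) without the posterior library. At every position the gated cells lay above the others for these genes, and Cldn7 was near level across the positions. A UMI of Cldn7 was found in 97.1% of gated and 5.13% of other cells, or 88.7% and 2.09% when each cell was thinned to 14500 UMIs. In the junction list 8 of 17 genes that passed the filter were at least 4-fold higher and none lower, with a median log2 difference of 1.78. Tjp1, a scaffold shared by many cell types, differed by only 0.72 on the log2 scale, and Dsp, the desmosome linker that cardiac muscle also makes, was the exception at 21.4 CPM in gated and 43.8 CPM in other cells, a log2 difference of -1.03 that turned to 0.17 with equal weights for the positions.

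The serine proteases and inhibitors of the epithelial surface belonged to the same group. Tmprss2, a membrane serine protease, had 55 UMIs in 36 gated cells and 1 UMI in all others, a ratio of 227 whose counting interval ran from 39.1 to 9135. Spint1, a Kunitz inhibitor of such proteases, was at 54.8, 31.6 and 44.5 CPM in gated cells by position and at 0.666 CPM or less in the others. Prss8 (prostasin) was at 71.2, 60.4 and 65.9 CPM against 11.4, 0 and 0.916, and St14 (matriptase) at 22.2, 24.7 and 37.8 CPM against 4.55, 0 and 0.250. Each of these genes was higher in gated cells in all 3 libraries. Of 14 polarity and membrane genes that passed the filter, 10 were at least 4-fold higher, with a median of 5.33 on the log2 scale. Cd24a, a surface protein that is made widely, was at 1200 CPM in gated and 925 CPM in other cells.

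Epithelial transcription and splicing regulators were present at lower levels but were nearly absent elsewhere. Esrp1, which sets the epithelial splicing programme, was at 49.0, 41.2 and 37.8 CPM by position and at 0.450 CPM over all the others, 92.3-fold apart (41.3 to 256), or 59.6-fold (10.4 to 2386) without the posterior library. Grhl2 and Ovol2, transcription factors that keep epithelial genes active, were at 21.1 and 20.2 CPM in gated cells and at 0.600 and 0.300 CPM in others. Klf5, a zinc finger factor of gut epithelia, differed along the axis, at 4.67, 9.61 and 60.4 CPM in anterior, middle and posterior gated cells. In this list 4 of 6 genes that passed the filter were at least 4-fold higher, and Sox9 was level at 22.9 and 26.6 CPM. Trp63, the basal layer regulator, had a UMI in 5 gated cells and in none of 429 others, a count of 0 that allows a share of up to 0.699% of cells with a UMI.

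All 4 keratins that passed the filter were at least 4-fold higher. Krt8 and Krt18, the simple epithelial pair, were at 621 and 860 CPM in gated and 135 and 183 CPM in other cells, and Krt8 had a UMI in all 104 gated cells but also in 81.1% of others. Krt7, of simple ductal epithelia, was at 37.3, 68.6 and 145 CPM by position and at 4.55, 1.15 and 1.75 CPM in the others. Krt5, Krt14, Krt15 and Krt17 of stratified epithelia did not pass the filter, and Krt14 had 0.310 CPM in gated cells.

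Among the other leading genes were Fermt1, the epithelial kindlin that activates integrins (39.1 against 0.225 CPM), Mpzl2, an adhesion protein of epithelia (21.4 against 0.150), Cldn9 (43.4 against 0.375), Kdf1, a regulator of epithelial differentiation (17.4 against 0.150), Bspry (25.7 against 0.300) and Sfn, an epithelial 14-3-3 protein (15.2 against 0.150). Cdkn2a, which encodes cell cycle inhibitors, was also in this set at 14.9 against 0.150 CPM, but its UMIs came from 10 gated cells and 31.3% of them from 1 cell.

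**Figure D2:**
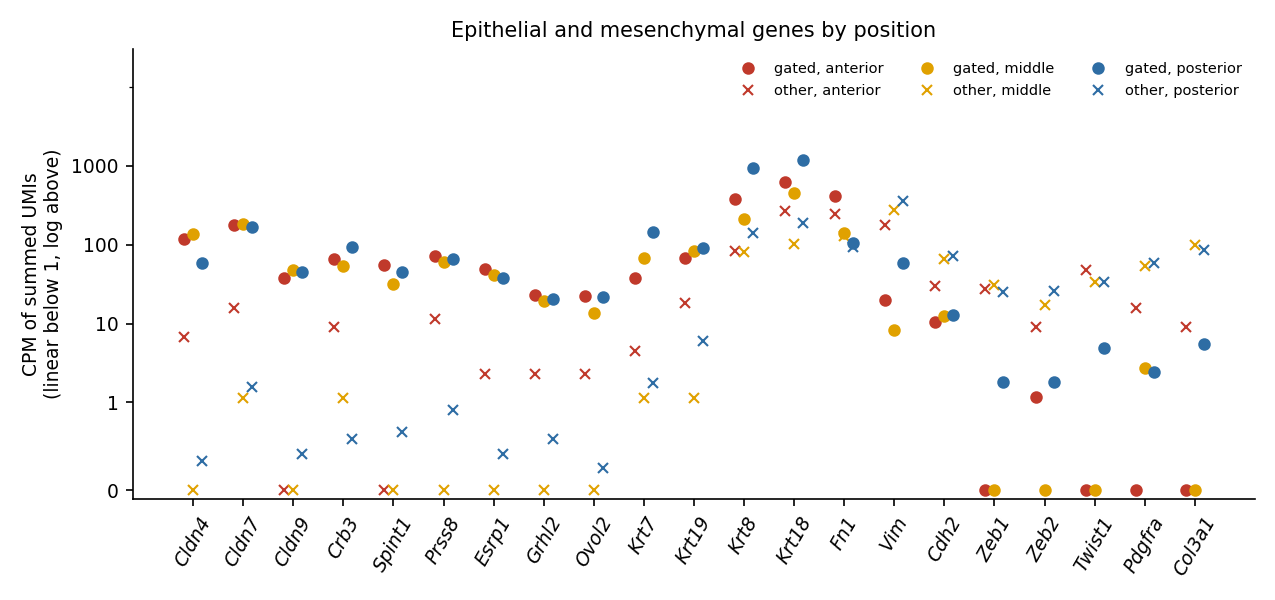
CPM of summed UMIs (linear below 1, log above) for 21 epithelial and mesenchymal genes, chosen from the lists after their values were seen, with dots for gated and crosses for other cells in each of the 3 libraries. Claudins, proteases, Esrp1 and keratins lie higher in gated cells at each position, Fn1 lies slightly higher, and Vim, Zeb1, Zeb2, Twist1 and Pdgfra lie lower.

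The mesenchymal programme was low in the same cells. Of 21 mesenchymal genes that passed the filter 13 were at least 4-fold lower in gated cells and none 4-fold higher, with a median log2 difference of -2.52, or -1.49, -2.91 and -2.47 within the anterior, middle and posterior libraries. Zeb1, an E-box repressor of epithelial genes, was at 0, 0 and 1.83 CPM in anterior, middle and posterior gated cells and at 27.3, 30.9 and 25.5 CPM in the others, 27.8-fold apart (9.45 to 136). Without the posterior library gated cells had no Zeb1 UMI, and Zeb1 was 15.7-fold lower with 3 counts in place of 0, which is not a lower limit. Zeb2, its paralogue, was at 1.17, 0 and 1.83 CPM against 9.10, 17.2 and 26.1. Vim, the mesenchymal intermediate filament, was at 19.8, 8.24 and 59.2 CPM against 177, 274 and 358. These 3 genes were lower in gated cells in each library. Pdgfra, the PDGF receptor of mesenchyme, was at 1.86 against 56.7 CPM, and Col3a1, a fibrillar collagen, at 2.79 against 85.1 CPM. Snai1 and Snai2 differed less, by -1.47 and -1.49 on the log2 scale. Fn1, the matrix glycoprotein fibronectin, was the exception, at 420, 139 and 106 CPM in gated cells and 243, 129 and 93.9 CPM in the others.

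Counted cell by cell, the 37 epithelial genes of the lists made up a median of 16.6 UMIs per 10000 in gated cells (6.15 to 34.5) and 2.92 in others (0 to 30.8). The 90th percentile of other cells was 18.7 in the anterior library, above the median of 15.8 in anterior gated cells. It was 4.70 in middle and 5.71 in posterior other cells. The 22 mesenchymal genes made up 3.16 per 10000 in gated cells (0 to 44.0) and 10.8 in others (0 to 78.1). The mesenchymal values of gated cells had medians of 5.62, 3.73 and 1.92 per 10000 in the anterior, middle and posterior libraries, with the anterior cells spread widest. In all, 26 of 104 gated cells reached the 10th percentile of the other cells on the mesenchymal genes, 5.53 per 10000, and 6 of 429 other cells reached the 10th percentile of gated cells on the epithelial genes, 12.3 per 10000. Scrublet marked 32 of the 54 anterior cells as doublets, 17 of them gated, but 2 of 61 middle and 5 of 418 posterior cells. No cell was removed, and the part of doublets in the anterior values was not tested beyond the counts without marked cells given in the closing section.

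**Figure D3:**
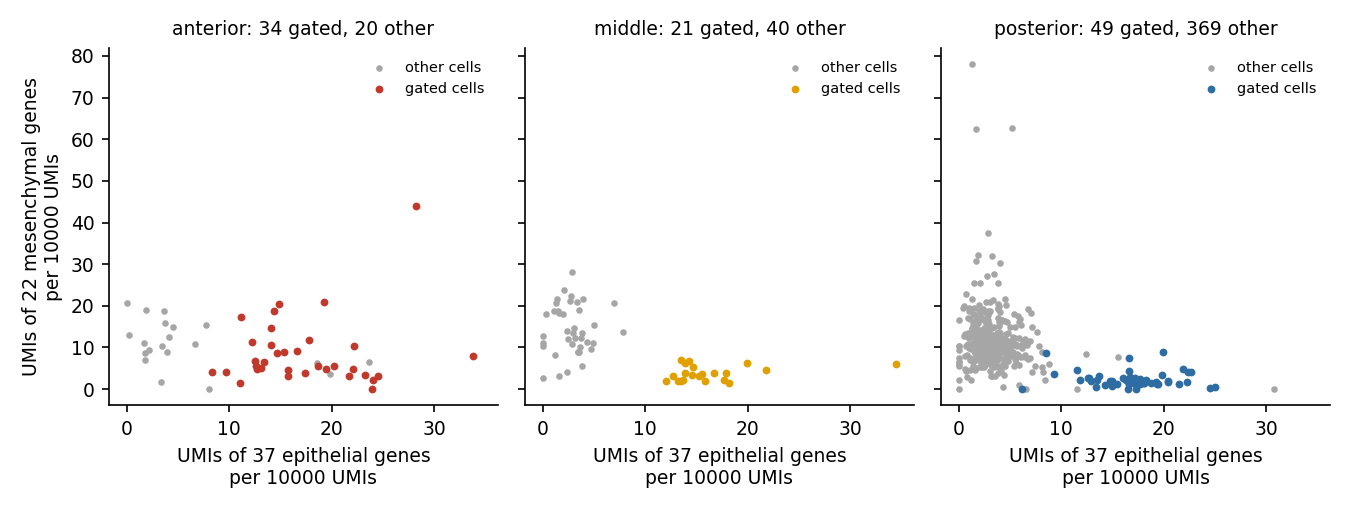
UMIs of 22 mesenchymal genes against UMIs of 37 epithelial genes, both per 10000 UMIs of the cell, in 3 panels by position, with gated cells in colour and other cells in grey. Most gated cells sit to the right and low, with a median of 1.92 mesenchymal UMIs per 10000 in the posterior library and 5.62 in the anterior library. Some anterior other cells reach the epithelial values of gated cells.

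Other genes far lower in gated cells were those of heart muscle and splanchnic mesoderm. The 12 genes named by rule were Tnni3, Ttn, Actc1, Sh3bgr, Rrad and Fitm1, which are made in striated muscle, the smooth muscle genes Cnn1 and Carmn, and Adgra2, Rspo1, Lix1l and Sparcl1. Actc1, cardiac actin, was at 2.33, 0 and 26.8 CPM in gated cells by position and at 100.1, 2.29 and 826 CPM in the others, 52.4-fold apart (39.3 to 71.7); without the posterior library 2 UMIs in gated stood against 46 in other cells. Rspo1, a secreted Wnt enhancer, had 4 UMIs in all gated cells and 860 in the others, and was thus at 1.24 against 64.5 CPM. Of 16 second heart field mesoderm genes that passed the filter, 7 were at least 4-fold lower and none 4-fold higher, with a median of -1.71. Foxf1, a forkhead factor of splanchnic mesoderm, was at 8.37 against 229 CPM, Wnt2 at 8.68 against 164, Tbx5 at 1.24 against 52.4 and Mef2c at 3.41 against 59.2. Isl1, in contrast, was shared, at 157, 115 and 87.2 CPM in gated cells and 216, 49.3 and 86.7 CPM in the others, with a UMI in 86 of 104 gated cells (82.7%) and 53.8% of others. Barx1, a stomach mesenchyme factor, was at 3.41 against 89.99 CPM over all cells, but without the posterior library its log2 difference turned from -4.72 to 2.54, since the anterior and middle others had 2.28 and 0 CPM. That value rests on 7 UMIs in gated and 1 in other cells, with a fold interval of 0.744 to 261 that includes 1. Osr1 itself was at 77.0, 113 and 138 CPM in gated cells and 61.4, 131 and 172 CPM in the others. Over all positions 66 gated cells (63.5%) and 70.4% of others had 2 or more Osr1 UMIs. Within each library the order was the reverse, at 35.3% against 30% in anterior, 76.2% against 60% in middle and 77.6% against 73.7% in posterior cells. All deposited cells hold an Osr1 UMI, so cells without an Osr1 read are missing from these values.

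Endoderm regulators separated the groups. Foxa1 and Foxa2, the pioneer factors of endoderm, were 82.1-fold (40.7 to 193) and 37.5-fold (24.4 to 60.5) higher in gated cells, and Sox2, the foregut factor, 53.9-fold (32.9 to 94.3). Without the posterior library Sox2 was 16.9-fold (7.999 to 42.8) higher and Foxa1, with no UMI in the others, at least 13.8-fold. Sox2 was at 94.5, 85.1 and 48.2 CPM in anterior, middle and posterior gated cells, while Foxa2 was at 17.5, 113 and 68.3 and Foxa1 at 11.7, 54.9 and 66.5 CPM. Anterior gated cells were thus the lowest for both Foxa genes, while Sox2 did not differ beyond counting error between anterior and middle cells (-0.15, -0.65 to 0.34) and was seen in 67.6%, 90.5% and 49.0% of anterior, middle and posterior gated cells. Of 12 endoderm regulators that passed the filter 7 were at least 4-fold higher. Gata4, Gata5 and Gata6, which the mesoderm also makes, were lower in gated cells, at 20.2, 20.2 and 45.3 CPM against 77.7, 56.1 and 125. Pdx1, Hnf4a and Cdx2 of the hindward gut and its organs had at most 4.65 CPM in gated cells.

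Within the gated cells, among 6315 genes with at least 50 counts over those cells, 60 were at least 4-fold higher in posterior than in anterior gated cells (0.95%) and 38 at least 4-fold lower (0.602%), with 3 counts in place of 0. The median log2 difference over all genes was 0.03. Without the cells that the doublet caller marked, 23 genes were 4-fold lower, of which 19 were among the 38. In that setting 67 genes were 4-fold higher, of which 44 were among the 60. There is 1 library per position, so these are values of the libraries and not a test of position. Of 18 pharyngeal regulators that passed the filter within gated cells 9 were at least 4-fold lower in the posterior cells and none 4-fold higher (median -2.10), whereas 5 of 11 endoderm regulators were at least 4-fold higher and none 4-fold lower (median 1.96). Of the 16 junction genes that passed 1 was 4-fold lower and none higher (median -0.12), and of the 14 polarity genes none was past 4-fold either way (median -0.04).

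Several pharyngeal pouch and thyroid genes were at their highest or nearly so in anterior gated cells. Pax1, a pouch endoderm factor (chromosome 2, 147361925 to 147393295, GENCODE vM21), was at 96.8 CPM in anterior gated cells with 83 UMIs and at 0 in middle and posterior gated cells. With 3 counts in place of 0 it was 52.9-fold higher anteriorly than posteriorly, and 26.5% of its UMIs came from 1 cell. Pax9, its paralogue (chromosome 12, 56691767 to 56712822), was at 73.5, 70.0 and 0.610 CPM, with 1 UMI in the posterior cells. Foxe1, a thyroid and pharyngeal factor, was at 81.7, 12.4 and 0 CPM, 44.6-fold higher in anterior than in posterior cells with 3 counts in place of 0. Pax1 was thus anterior alone, Pax9 was as high in middle as in anterior cells, and Foxe1 lay between the 2 patterns. Of the other thyroid markers Nkx2-1 was at 43.2, 0 and 18.9 CPM, and Hhex, which also marks the liver bud, was higher in posterior cells, at 19.8, 1.37 and 36.0 CPM.

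Nkx2-3, a homeobox gene of pharyngeal floor (chromosome 19, 43612325 to 43615892), was at 191, 54.9 and 0.610 CPM in gated cells and at 43.2, 0 and 0.250 CPM in the others. Its log2 difference from anterior to posterior gated cells was -8.29 (-13.61 to -5.80), resting on 1 posterior UMI. Nkx2-5, the cardiac and pharyngeal homeobox gene, was at 133, 22 and 3.66 CPM in gated cells. In the other cells it was at 125, 51.5 and 90.7 CPM, close to the gated cells in the anterior library and well above them in the posterior one. Nkx2-6 and Ripply3, further pouch genes, differed by less than 4-fold between the ends, at 53.7, 20.6 and 27.4 and at 140.0, 219.7 and 106 CPM.

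Of the 11 FGF, hedgehog and Wnt response genes that passed the filter within gated cells, 2 (Dusp6 and Spry1) were at least 4-fold lower in posterior than in anterior cells and none 4-fold higher, with a median of -0.33 against 0.03 for all genes. Fgf8, a ligand of the pharyngeal epithelium, was at 119, 8.24 and 0 CPM in gated cells, at least 65.0-fold higher in anterior than posterior cells, and at 70.5, 42.4 and 1.92 CPM in the others. The response genes Etv4, Dusp6 and Spry1 were at 32.7, 58.3 and 31.5 CPM in anterior and at 0.610, 3.66 and 6.71 CPM in posterior gated cells. The same genes were at 25, 61.4 and 25 CPM in anterior and 1.75, 20.1 and 4.83 CPM in posterior other cells. Tbx1, the T-box gene of pharyngeal epithelium and mesoderm, was at 81.7, 165 and 2.44 CPM in gated and 102, 110 and 9.41 CPM in other cells. Edn1, a ligand to neural crest, was at 47.8, 0 and 0 CPM, and Bmp4 at 78.2, 12.4 and 8.54 CPM. Gbx2, Frzb (a secreted Wnt antagonist) and Sall1 completed the anterior genes named by rule, at 44.3, 37.3 and 47.8 CPM in anterior and 0.610, 1.83 and 4.27 CPM in posterior gated cells.

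Pyy, which encodes the gut hormone peptide YY, peaked in the middle. It was at 106, 380.3 and 4.27 CPM in gated cells and at 6.83, 3.44 and 0.583 CPM in the others, and was 119-fold (68.8 to 226) higher in gated cells over all, or 50.8-fold (23.1 to 139) without the posterior library. A UMI was found in 34 gated cells, of which 11 were anterior, 17 of the 21 middle and 6 of the 49 posterior. The 13 cells with 10 or more UMIs, 3 anterior and 10 middle, held 85.6% of all Pyy UMIs; 10 of them also had Pax9 and 12 had Sox2.

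Hedgehog ligands and several products known from the liver bud were higher in posterior than in anterior gated cells, while the 7 foregut markers summed to 146, 398 and 433 CPM in anterior, middle and posterior cells. Shh, the hedgehog ligand of foregut endoderm (chromosome 5, 28456815 to 28467256), was at 9.33, 93.4 and 173 CPM in gated cells and at 0, 0 and 0.583 CPM in the others, 212-fold apart over all (102 to 532). Without the posterior library the others had no Shh UMI, and the fold was 21.0 with 3 counts in place of 0, with a lower limit of 16.6. Ihh, the second hedgehog ligand, was at 0, 2.75 and 43.3 CPM. Middle cells lay between the ends for both genes. The hedgehog targets Gli1, Hhip and Foxf1 were in contrast lower in gated than in other cells, at 3.41, 1.86 and 8.37 CPM against 18, 16.2 and 229, and Ptch1 was at 70.7 against 116. In the list of FGF, hedgehog and Wnt response genes 2 of 24 were at least 4-fold higher and 4 lower, with a median of 0.02 that turned to -0.37 with equal weights for the positions; the 2 higher were Sp5, a Wnt target (58.0 against 3.08 CPM), and Etv5 (32.2 against 5.63).

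Ttr, the thyroid hormone carrier transthyretin, was at 5.83, 34.3 and 469 CPM in gated cells and at 0, 0 and 5.66 in the others, a difference of 6.33 (5.10 to 7.96) on the log2 scale between posterior and anterior gated cells. Rbp4, the retinol carrier, was at 3.50, 16.5 and 58.5 CPM, Vtn (vitronectin) at 0, 43.9 and 76.2, and Cpn1 (a carboxypeptidase subunit) at 3.50, 75.5 and 62.8. All 4 are secreted products of liver or yolk sac and lay higher in the posterior than in the anterior library, with Vtn lower in middle than in posterior cells by 0.80 (0.23 to 1.40) on the log2 scale. The 7 hepatoblast markers, Ttr among them, summed to 14, 52.2 and 575 CPM in gated cells and to 4.55, 5.73 and 13.2 CPM in the others. Alb, which marks hepatoblasts, had 0.620 CPM in gated cells, Hnf4a 1.24 and Apoa1 2.79. Sfrp5, a secreted Wnt antagonist of foregut endoderm, was at 0, 1.37 and 90.3 CPM in gated cells but at 53.4 CPM in posterior other cells too. Nepn, a matrix proteoglycan of early endoderm, had 0, 9.61 and 57.9 CPM with no UMI in other cells, and 42.2% of its UMIs came from 1 cell. Dhrs3, which reduces retinal, was at 1.17, 13.7 and 27.4 CPM, and Fam183b at 2.33, 12.4 and 77.5. Gap43 was at 1.17, 2.75 and 38.4 CPM with 33.3% of its UMIs in 1 cell. Myl4, an atrial myosin light chain, was also in this set at 2.33, 0 and 46.3 CPM; the posterior other cells had 663 CPM and the cardiomyocyte list was higher in posterior gated cells as given above, and the part of that RNA was not tested.

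**Figure D4:**
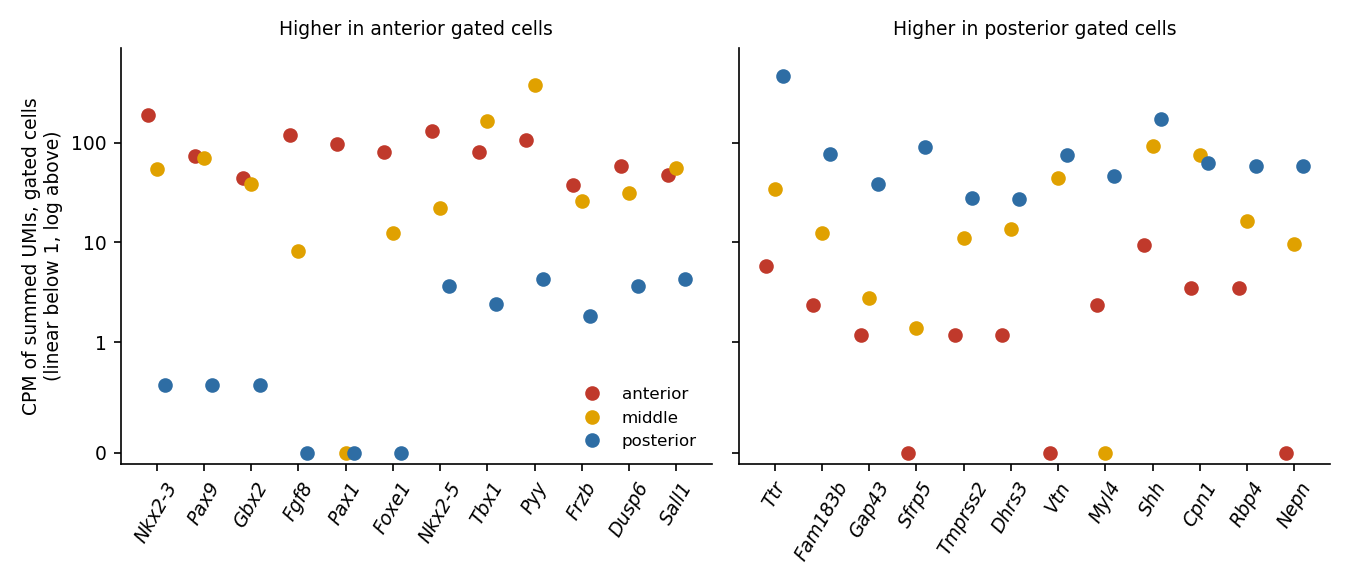
CPM of summed UMIs in gated cells (linear below 1, log above) for the 12 genes with the lowest and the 12 with the highest posterior to anterior fold, coloured by position. Pax9, Gbx2 and Sall1 lie close together in anterior and middle cells, Tbx1 and Pyy lie highest in middle cells, Pax1 is at 0 outside the anterior library, and Shh, Vtn and Cpn1 lie nearer to their posterior than to their anterior level in middle cells.

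The middle library differed from each end. Between middle and anterior gated cells 88 of 6315 genes were past 4-fold (1.39%), 28 of them higher in middle cells (0.443% of all genes) and 60 lower (0.95%). Without the cells marked as doublets 52 genes were past 4-fold, of which 41 were among the 88. Between posterior and middle cells 79 were (1.25%), 58 higher in posterior cells (0.918%) and 21 lower (0.333%). Nkx2-3 differed by -1.80 (-2.34 to -1.29) and Nkx2-5 by -2.60 (-3.45 to -1.84) on the log2 scale from anterior to middle, whereas Pax9 was level (-0.07, -0.63 to 0.49) and Tbx1 higher by 1.01 (0.58 to 1.46). Shh differed by 3.32 (2.26 to 4.59) from anterior to middle and by 0.89 (0.51 to 1.30) from middle to posterior.

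Retinoic acid and Hox genes gave a mixed picture. Aldh1a2, which makes retinoic acid, was at 0, 0 and 12.2 CPM in gated cells and 0, 129 and 159 CPM in the others. Rarb, a receptor that retinoic acid induces, was at 53.7, 75.5 and 56.7 CPM against 15.9, 36.7 and 22.8, and Crabp2, a carrier, at 414, 663 and 232 against 232, 282 and 143. Both were higher in gated cells in all 3 libraries. None of 11 retinoic acid genes was 4-fold higher and 1 was 4-fold lower, with a median of 0.83. Hoxa5 and Hoxb4, of the more posterior Hox code, were at 10.2 and 16.4 CPM in gated cells against 58.2 and 68.6 in the others. Without the posterior library Hoxa5 turned from -2.51 to 0.59 on the log2 scale. That value rests on 20 UMIs in gated and 11 in other cells, with a fold interval of 0.687 to 3.48 that includes 1. Of 12 Hox genes that passed the filter none was 4-fold higher and 3 were 4-fold lower (median -1.09).

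Of 18 basement membrane genes that passed the filter 2 were at least 4-fold higher and none 4-fold lower, with a median of 1.09; 13 lay above and 5 below the other cells, the lowest being Nid1 (-1.54), a nidogen. Npnt, an integrin ligand of basement membranes, was at 119, 82.4 and 87.8 CPM against 27.3, 42.4 and 16.7, and Itga3, a laminin receptor subunit, at 38.5, 34.3 and 18.9 against 13.7, 9.16 and 2.75. The type IV collagens Col4a1 and Col4a2 were at 86.8 and 65.7 CPM against 23.9 and 17.1. Pdgfa, the ligand of the receptor Pdgfra that was low in gated cells, was at 135, 65.9 and 55.5 CPM against 95.6, 17.2 and 12.6. Of the secreted signals 6 of 18 were at least 4-fold higher and 1 lower, with a median of -0.17 that turned to 0.03 with mean per-cell CPM. Among cell cycle genes none of 20 S phase and none of 20 G2/M genes was past 4-fold, with medians of -0.26 and -0.25. Within the anterior, middle and posterior libraries the G2/M median was 0.29, 0.42 and -0.51, so its sign differed between libraries. The S phase median was -0.26, -0.65 and -0.13. With equal weights for the positions the G2/M median turned to 0.11. Immediate early and heat shock genes had a median of -1.05, with 1 of 10 at least 4-fold lower.

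Within cells, the regulators were detected in combinations. Shares over all positions mix libraries of unlike makeup, so they are given by position where the order differs. Tbx1 was seen in a higher share of gated than of other cells over all (28.8% and 23.8%) but in a lower share within each library, at 35.3% against 50% in anterior, 66.7% against 80% in middle and 8.16% against 16.3% in posterior cells. Fgf8 was seen in 47.1% against 40% of anterior cells, but in 14.3% against 35% of middle and 0 against 4.61% of posterior cells. Nkx2-5 was seen in 70.6% against 65% of anterior, 38.1% against 35% of middle and 8.16% against 28.2% of posterior cells. These 3 genes are thus shared with the other cells. Foxa2 was seen in 62 gated cells (59.6%, 49.5 to 69.1) against 3.73% of others, and Sox2 in 66 (63.5%, 53.4 to 72.7) against 2.33%; thinned, both were in 50.5% of gated and 1.83% of other cells. Both transcripts were seen in 42 cells and neither in 18. Pax9 was seen in 34 gated cells, 20 of them anterior, 13 middle and 1 posterior, and Shh in 55, of which 6 were anterior, 11 middle and 38 posterior. In the middle library, where each was common, 3 of 21 cells had both transcripts and none had neither. A transcript at a few UMIs per cell is missed in many cells that hold it, so an absent pair is not an absent combination.

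The cell groups in this paragraph were picked after their values were seen and are given as counts. Pax8 was seen in 12 cells and Pax1 in 14, all anterior, and Foxe1 in 19, of which 14 were anterior and 5 middle; all 19 also had Nkx2-3. Foxe1 with Nkx2-1, the pair of thyroid progenitors, was seen in 8 cells, all anterior, with Nkx2-3 in all 8 and Pax8 in 5. Nkx2-1 was further seen in 9 posterior cells, of which 8 had Foxa2, 7 Shh and none Pax8 or Foxe1. Among the 14 Pax1 cells, 13 had Nkx2-3, 11 Pax9, 10 Sox2 and 8 Fgf8, and none had Foxa2 or Shh. In 3 anterior cells Fgf8 and Tfap2a, an ectodermal and neural crest factor, occurred together with Tbx1 and Sox2.

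A few gated cells with 10 or more Wnt6 or Hand1 UMIs lacked the foregut genes of the label. The 3 posterior cells with 10 or more Wnt6 UMIs had 5 to 7 Tfap2a UMIs each and no Foxa1, Foxa2, Sox2, Shh or Pax9. Over the whole list, the 8 surface ectoderm markers summed to 37.3, 9.61 and 102 CPM in anterior, middle and posterior gated cells and to 11.4, 13.7 and 5.41 CPM in the others, and the part of such cells in the posterior values was not tested. The 4 cells with 10 or more Hand1 UMIs, 2 anterior and 2 posterior, held 97.2% of the Hand1 UMIs and had no Foxa2, Sox2 or Shh. Of these 4 cells 2 had Nkx2-3, and 1 anterior cell also had Nkx2-1, Foxe1 and Pax9, so it is 1 of the 8 Foxe1 and Nkx2-1 cells above. The 2 posterior cells were among the 3 Wnt6 cells. The 3 posterior cells with 10 or more Hhex UMIs, in contrast, had 102 to 149 Ttr UMIs each, 49.1% of all, with Foxa1, Foxa2 and Ihh in all 3. A pair of posterior cells exceeded 100000 UMIs. The first, at 104458 UMIs, had 86 Hand1, 62 Wnt6, 66 Plac8 and 7 Tfap2a UMIs. The second, at 101370, had 149 Ttr, 43 Afp, 14 Hhex, 16 Myl7 and 11 Wnt2 UMIs. Without these 2 cells Afp was at 4.31 instead of 17.4 CPM over the gated cells, Hand1 at 30.8 instead of 56.1, Wnt6 at 23.8 instead of 41.5, Wnt2 at 4.31 instead of 8.68 and Ttr at 215 instead of 248.

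**Figure D5:**
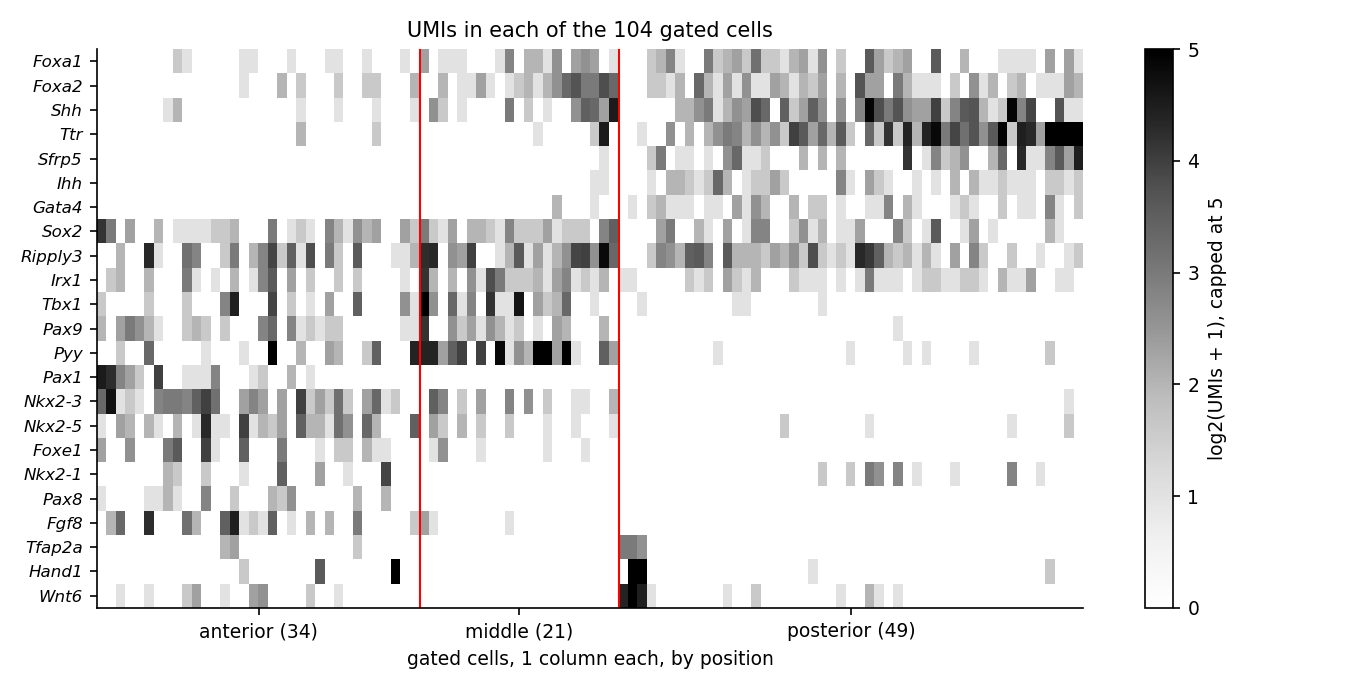
UMIs of 23 regulators and products, chosen after their values were seen, in each of the 104 gated cells as log2(UMIs + 1), capped at 5, 1 column per cell. Red lines divide the 34 anterior, 21 middle and 49 posterior cells, and cells within a position are ordered by pharyngeal minus foregut UMIs; Pax1, Pax8 and most Foxe1 UMIs lie in the anterior block, most Ttr, Sfrp5 and Ihh UMIs in the posterior block, and the posterior Hand1 and Wnt6 cells at the left of the posterior block.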

How the data were processed

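Per the submitters' processing notes, the authors processed the reads with Cell Ranger 3.0 and Seurat against mm10; which annotation and which cell filters they used is not stated there. The deposited matrices hold raw UMI counts of 17492 genes at E9.5, of which 17299 (98.9%) matched GENCODE vM21 (GRCm38). Positions were read from the barcode suffix. Total UMIs were 1296638, 1601463 and 13650408 in the anterior, middle and posterior libraries, of which gated cells held 857183, 728389 and 1639770.

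Counts were summed over the cells of a group and scaled to CPM. Folds carry exact conditional Poisson 95% intervals, shares exact Clopper-Pearson intervals, and a count of 0 was set to 3 in folds; reads without replicates allow no test, and none was run. Genes needed 50 counts over all E9.5 cells, or over gated cells for positions; a gene low in other cells can pass through the gated cells alone, so list counts describe genes that passed. Shares were also computed after thinning each cell to 14500 UMIs, which left out 7 gated and 46 other cells. The genes named were the 15 highest and 12 lowest folds with 1 sign of the CPM difference at all positions, and the 12 highest and 12 lowest posterior to anterior folds whose interval lay beyond 2-fold, besides list genes. The members and lists were chosen with earlier results of these data known. Scrublet was run per library through scanpy 1.11.5, and no cell was removed. TMM scaling came from edgeR 4.0.16. Python 3.11.15, numpy 2.4.6, pandas 2.3.3 and scipy 1.17.1 were used. The fold script was tested on counts drawn from the Poisson model that its intervals assume. Of 10373 genes simulated for gated against other cells, the intervals held the true fold for 95.9% of those with counts in both groups. The share was 96.4% with 6315 genes simulated for posterior against anterior gated cells. Coverage near 95% was thus set in advance, and the spread between cells was not simulated.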

Additional observations from a re-analysis of the deposited data

Results flagged for a closer look

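Of the list genes, 3 had opposite differences between posterior and anterior cells in gated and in other cells, each at least 2-fold with a counting interval that left out 0. With 1 library per position the difference between the groups was not tested. The share of all genes that meet the same rule is not given here, so nothing is read from the count of 3. Rdh10, a retinol dehydrogenase, was at 19.8, 32.9 and 50.6 CPM in anterior, middle and posterior gated cells and at 43.2, 104 and 17.5 CPM in other cells, log2 differences of 1.35 (0.59 to 2.20) and -1.31 (-1.99 to -0.55). Sema3c, a secreted guidance cue, was at 14, 45.3 and 45.7 CPM and at 41, 16 and 12.8 CPM, differences of 1.71 (0.82 to 2.72) and -1.68 (-2.38 to -0.88). Hoxb1 was at 45.5, 165 and 22.6 CPM and at 15.9, 72.2 and 71.9 CPM, differences of -1.01 (-1.70 to -0.32) and 2.18 (1.13 to 3.49), so the middle cells stood highest in the gated group. The 20 anterior other cells hold 439455 UMIs, which limits the second value of each pair.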

How the results depend on the processing

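Another gate (10 UMIs with 4 of Epcam, 3 with 1 of Epcam, or UMIs scaled to the median depth), TMM scaling, mean per-cell CPM and equal weights for the positions left each share and each count of genes past 4-fold within its interval or within 1.5 times its value. Without the cells that Scrublet marked, the anterior share was 77.3%, 23 genes were 4-fold lower in posterior than in anterior gated cells, and 52 were past 4-fold between middle and anterior. Of these, 19 were among the 38 and 41 among the 88 genes found with all cells. With a minimum of 10 counts, 581 genes were 4-fold higher in gated cells, 212 and 198 were higher and lower in posterior than anterior gated cells, and 422 and 322 were past 4-fold in the other 2 pairs. With 200 counts these were 53 higher and 127 lower in gated cells, 9 and 7 between the ends, and 16 and 11. Leaving out 1 library in turn gave 79 to 183 genes 4-fold higher and 63 to 347 lower in gated cells; the lowest of both came without the posterior library, where 60 other cells and 5936 genes remain. Of 593 recomputed values for the contrast by which each gene was named, 530 stayed within their interval, 63 moved beyond it and 0 changed sign. Of those that moved, 23 came with equal weights for the positions and 19 without the posterior library. Of those that stayed, 51 came with each of the 2 other count minimums, which cannot alter a fold. Genes were named for 1 sign at all positions or an interval beyond 2-fold, so a kept sign was largely set in advance and is no check. Leaving out the 2 cells over 100000 UMIs, added after the data were seen, moved no count by over 1.5 times. With equal weights for the positions, which the libraries' sizes otherwise set, 34 of 271 list genes changed sign, among them Tbx1 (1.66 to -0.56) and Fgf8 (2.29 to -0.56); without the posterior library 43 did. The G2/M median then turned from -0.25 to 0.11, and that of secreted signals from -0.17 to 0.03 with mean per-cell CPM. No paired analysis was possible because each position is 1 library of 1 sample.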
